A study of Homo sapiens with 6 samples.

Results

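Among the 11048 gene symbols measured in MM1.S cells, 50 carried a name of the long noncoding RNA kind, and their RNA levels were followed after exposure to the PDIA1 inhibitors CCF642 and CCF642-34. MM1.S, an established line, derives from human multiple myeloma, a cancer of plasma cells. The cells received DMSO, the vehicle, or 3 µM of either compound for 6 h, and each of the 3 groups had 2 RNA-seq libraries. Nothing in the labels says that the 2 libraries of a group came from separate cultures. Every p-value below thus measures only the spread between these libraries, which may be technical. For limma, that spread was drawn mostly from other genes of similar level (42.9 prior beside 3 residual degrees of freedom). A member's own spread therefore weighed little in its p-value. The RNA came from whole cultures, in which fewer cells expressing a transcript and less of that transcript per cell cannot be told apart.

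The members were chosen by symbol alone. The rule used none of their values, but earlier results of these data were known when it was set. A symbol was taken if it began with LINC and a digit or with SNHG, if it ended in -AS1, -AS2 or -IT1, or if it was 1 of 6 well known names. This gave 33 symbols ending in -AS1, 1 in -AS2, 1 in -IT1, 14 LINC symbols and 1 SNHG symbol, SNHG11. Of the 6 names, EPB41L4A-AS1 was found, while MALAT1, NEAT1, GAS5, OIP5-AS1 and TUG1 were not analysed here. Of the 50 symbols, 48 were long noncoding RNA genes in RefSeq. The exceptions were NCBP2-AS2, which both reference annotations class as protein-coding, and TP73-AS1, a transcribed pseudogene, and the symbols rather than these classes decide membership here.

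Long noncoding RNAs are transcripts that are not known to be translated into a protein. An antisense RNA is read from the strand opposite to another gene, its sense gene, and many start next to that gene's promoter. A snoRNA host gene is transcribed and spliced like a messenger RNA, but the useful product lies in its introns, from which small nucleolar RNAs are cut, and these guide the chemical modification of ribosomal RNA. The spliced exons of such hosts are often degraded by nonsense-mediated decay, the surveillance pathway that removes RNAs whose reading frame ends early. A library of polyadenylated RNA mainly samples the spliced exons.

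The members were low in reads. Values are CPM, read counts scaled to a common library total, and the 6 libraries held 20567313 to 28459677 reads. The median member had a mean of 3.83 CPM over the 6 libraries, against 36.8 CPM for all listed genes, and 29 of the 50 members lay under 5 CPM (58% against 15% of all listed genes). Together they took 0.0870% to 0.101% of the reads of a library, and LRRC75A-AS1 and LINC01000 alone accounted for 62.9% of the members' summed mean CPM. Per kb of annotated exon, LRRC75A-AS1 stood at 85.3 CPM per kb and NCBP2-AS2 at 30.9 CPM per kb, whereas THUMPD3-AS1, with similar CPM to NCBP2-AS2, reached 5 CPM per kb. LINC01000 had no exon length in the GENCODE annotation used.

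Precision was limited at these levels. Differences are given on the scale of log2(TMM-scaled CPM + 1), which understates the change of low genes, with the standard error (SE) and the 95% interval from limma. The median SE was 0.179 for the members and 0.079 for all listed genes, so that a typical member had to differ by more to be called. In the libraries, 1 to 9 of the 50 members had fewer than 20 reads.

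**Figure D1:**
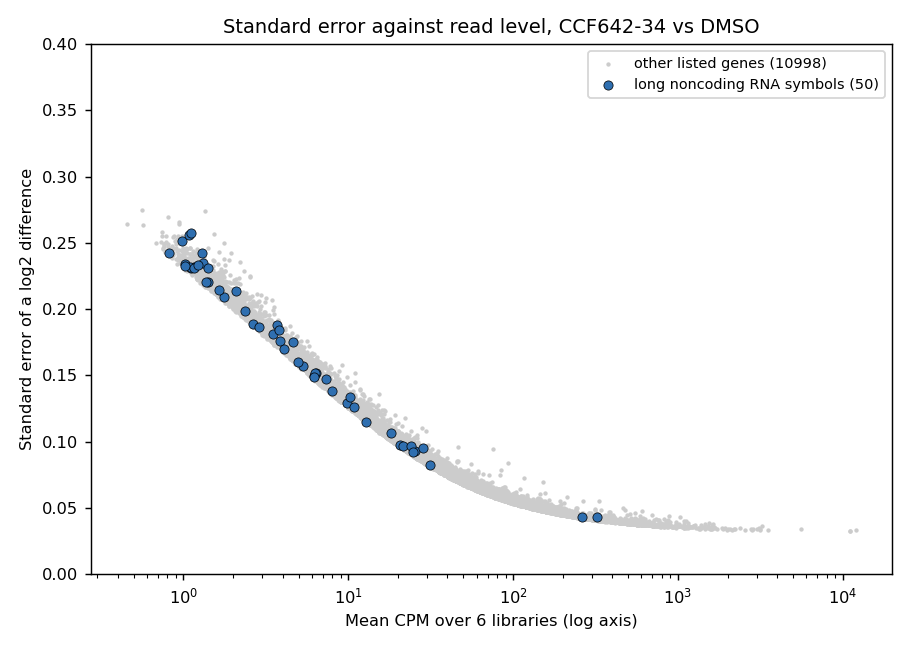
Standard error of the log2 difference between CCF642-34 and DMSO (vertical axis) against the mean CPM over 6 libraries (horizontal log axis) for the 50 members (blue) and the other 10998 listed genes (grey). Most members sit at the left, where standard errors are largest, and only LRRC75A-AS1 and LINC01000 lie beyond 100 CPM, at an SE of 0.0428.

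A gene was called when its p, adjusted over all 11048 genes by the Benjamini-Hochberg method, was under 0.05. With CCF642, 7 members rose and 9 fell against DMSO, which is 32% of the 50 members beside 63.1% of all listed genes called. With CCF642-34, 7 members rose and 10 fell, which is 34% beside 57.6%. Compared directly, CCF642-34 gave more RNA than CCF642 for 5 members and less for 6, which is 22% beside 33.4%. Among the 21 members with a mean of at least 5 CPM the calls were 10, 7 and 7 in these comparisons, or 47.6%, 33.3% and 33.3%. Of the 9390 listed genes above this floor, 67.6%, 62.7% and 37.6% were called. The floor did not match levels, since 9 members and 7155 listed genes had a mean of at least 20 CPM. Above the floor the median SE was 0.115 for the members and 0.071 for all listed genes, so precision still differed.

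Changes were small. At the study's own criterion, a 2-fold change with an unadjusted p under 0.05, 0 of the 50 members were called with CCF642 (6.49% of all listed genes), 1 with CCF642-34 (3.87%) and 0 between the compounds (0.308%). The 1 member was ANP32A-IT1, which was lower. By direction, the criterion was met by 4.50% of all listed genes higher and 1.99% lower with CCF642, by 2.59% and 1.29% with CCF642-34, and by 0.00905% and 0.299% between the compounds. These are limma's counts with a pseudocount of 1. With a pseudocount of 0.1, limma called 2 members lower and 0 higher with CCF642 by this criterion. With a pseudocount of 1 and no minimum fold, 16, 17 and 19 members had an unadjusted p under 0.05. On the recovered reads, edgeR's quasi-likelihood test called 3, 3 and 3 members lower and 0, 1 and 1 higher by the 2-fold criterion, limma-voom 3, 3 and 3 lower and 0, 1 and 2 higher, and DESeq2's Wald test 1, 3 and 3 lower and 0 higher in each. The median size of the log2 difference, without its sign, was 0.230 in the members and 0.288 in all listed genes with CCF642. It was 0.242 and 0.246 with CCF642-34, and 0.275 and 0.146 between the compounds. Such a median grows with the SE, which was larger for the members. With a mean of at least 5 CPM, the medians were 0.251 and 0.281, 0.158 and 0.241, and 0.207 and 0.139 in these comparisons. The signed medians of the members were 0.023, -0.082 and -0.114, against -0.007, 0.007 and 0.009 for all listed genes.

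**Figure D2:**
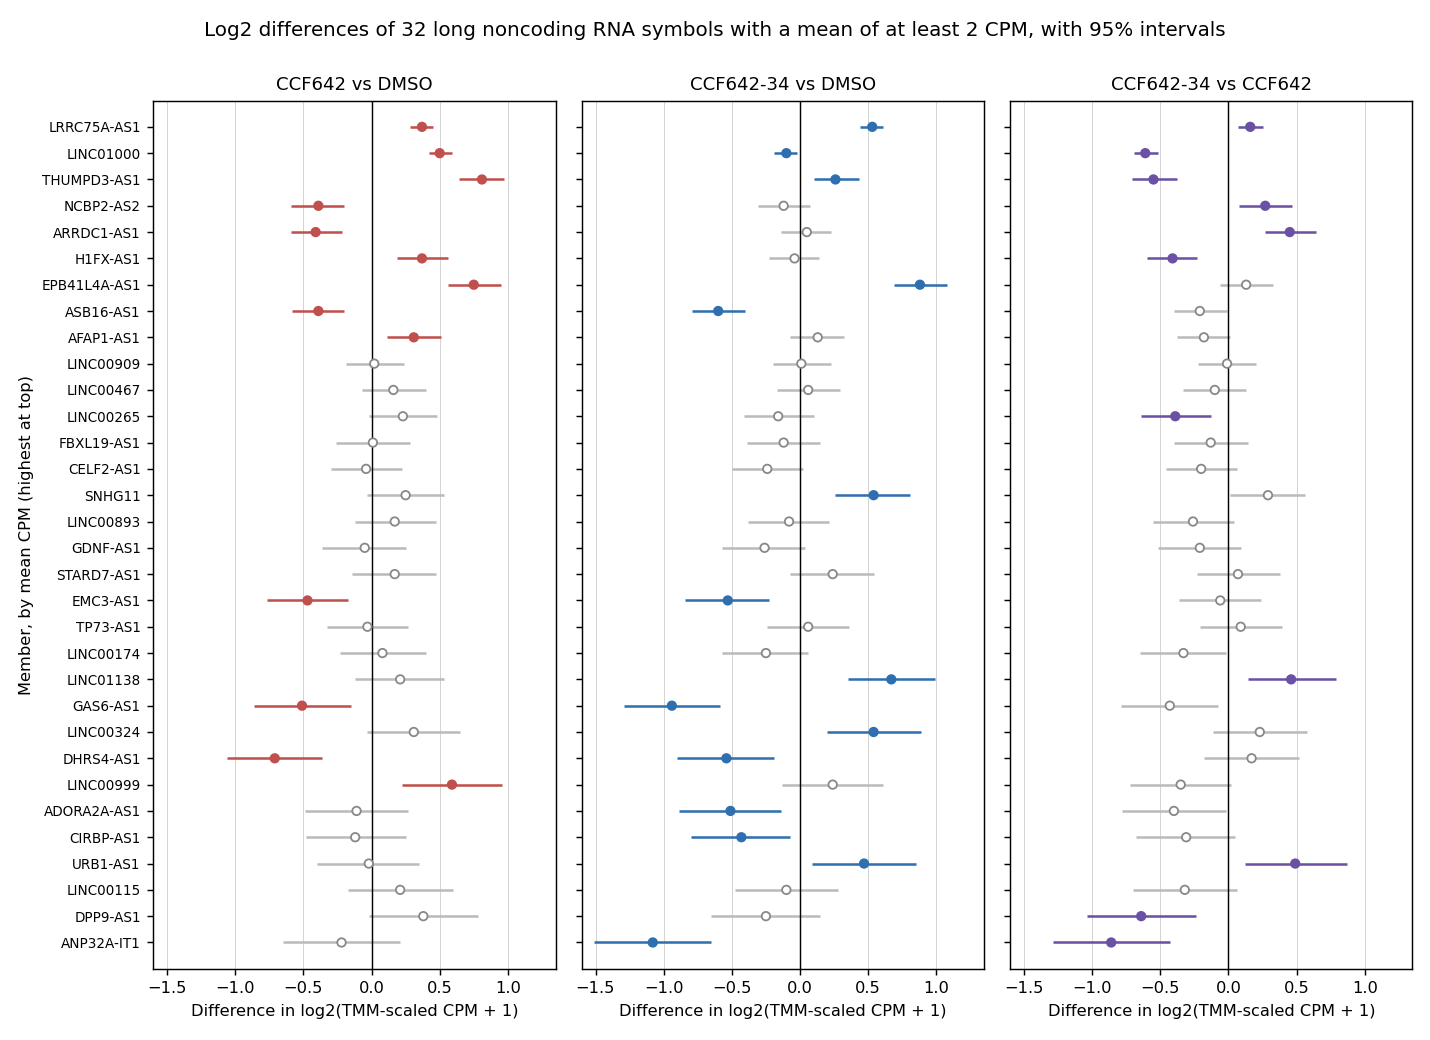
Difference in log2(TMM-scaled CPM + 1) with its 95% interval for the 32 members with a mean of at least 2 CPM (rows, highest mean CPM at the top) in the 3 comparisons (panels). Filled coloured points are members with an adjusted p under 0.05 and open grey points are the rest. THUMPD3-AS1 lies farthest to the right with CCF642 (0.81) and ANP32A-IT1 farthest to the left with CCF642-34 (-1.08), and intervals widen towards the bottom.

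The members were sorted by their calls against DMSO, whose libraries both comparisons share. With both compounds 3 rose (6%, against 24.3% of all listed genes), and they were EPB41L4A-AS1, LRRC75A-AS1 and THUMPD3-AS1. Another 4 fell with both (8%, against 22%), and they were ASB16-AS1, DHRS4-AS1, EMC3-AS1 and GAS6-AS1. LINC01000 was called in opposite directions by the compounds, which held for 0.896% of all listed genes. A further 8 members were called with CCF642 only (16%, against 15.9%) and 9 with CCF642-34 only (18%, against 10.4%), which does not by itself show that the compounds differed there. The remaining 25 members passed in neither (50%, against 26.5%).

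All 3 members that host snoRNAs rose with CCF642-34, and 2 of them rose with CCF642. This group was set up after the values had been seen. In GENCODE, LRRC75A-AS1 (named SNHG29 in RefSeq) holds SNORD49A, SNORD49B and SNORD65, EPB41L4A-AS1 holds SNORA13, and SNHG11 holds SNORA71E and SNORA60. The intronic RNAs themselves were not measured, and their GENCODE sequences are shown because they tell the hosts' products apart. The SNORD RNAs are of the C/D kind, which guide methylation of the ribose, and the capitals mark the box C letters TGATGA and the box D letters CTGA. The SNORA RNAs are of the H/ACA kind, which guide the change of uridine to pseudouridine, and the capitals mark their last ACA.
SNORD49A: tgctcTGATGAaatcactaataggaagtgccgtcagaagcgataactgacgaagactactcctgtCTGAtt
SNORD49B: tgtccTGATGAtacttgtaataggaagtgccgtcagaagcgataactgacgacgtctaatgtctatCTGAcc
SNORD65: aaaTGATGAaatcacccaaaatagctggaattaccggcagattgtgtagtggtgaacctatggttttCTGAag
SNORA13: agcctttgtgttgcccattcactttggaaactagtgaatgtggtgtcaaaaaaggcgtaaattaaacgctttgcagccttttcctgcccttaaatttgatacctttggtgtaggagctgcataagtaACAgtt
SNORA71E: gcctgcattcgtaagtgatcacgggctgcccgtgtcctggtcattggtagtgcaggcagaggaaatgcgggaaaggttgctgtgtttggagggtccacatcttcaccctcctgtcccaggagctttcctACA
SNORA60: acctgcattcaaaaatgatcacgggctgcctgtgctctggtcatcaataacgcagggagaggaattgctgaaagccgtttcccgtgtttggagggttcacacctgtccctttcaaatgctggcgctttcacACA

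SNORD49A and SNORD49B share a stretch of 35 bases between the boxes, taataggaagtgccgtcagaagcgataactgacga, so these neighbours in 1 host carry the same letters there. The last ACA stands 3 bases before the end of SNORA13, and it ends the annotated sequence of SNORA71E and SNORA60.

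EPB41L4A-AS1 had the largest increase of the 3 hosts. Its CPM was 17.2 and 15.8 in the DMSO libraries, 28.4 and 23.7 with CCF642, and 30.9 and 27.9 with CCF642-34, each pair in the order of replicate 1 and 2. Every treated library lay above both DMSO libraries, and the compounds' ranges overlapped. The log2 difference was 0.75 with CCF642 (SE 0.0965, adjusted p = 3.24e-09, limma), a 1.68-fold rise, and 0.88 with CCF642-34 (SE 0.0965, adjusted p = 6.27e-11), a 1.84-fold rise. Between the compounds it was 0.13, with an interval of -0.06 to 0.33 (adjusted p = 0.312). With 2 libraries a group, separate groups were common. The libraries did not overlap for 81.7% of all listed genes with CCF642 against DMSO, 79.3% with CCF642-34 and 65.1% between the compounds. For the 50 members these shares were 54%, 64% and 54%.

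LRRC75A-AS1 was the member with the most reads, 6006 to 10671 in a library. Its CPM was 264 and 281 with DMSO, 331 and 310 with CCF642, and 375 and 363 with CCF642-34, and the 3 groups did not overlap. It rose by a log2 difference of 0.37 with CCF642 (SE 0.0428, adjusted p = 2.59e-10, limma) and 0.53 with CCF642-34 (adjusted p = 6.91e-15). CCF642-34 stood 0.16 above CCF642 (interval 0.07 to 0.25, adjusted p = 0.00311), and without CCF642-34 replicate 1 this became 0.13 with an adjusted p of 0.0732.

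SNHG11 was lower in reads, 146 to 288 in a library. Its CPM was 6.61 and 6.82 with DMSO, 8.12 and 6.86 with CCF642, and 10.1 and 9.10 with CCF642-34. The CCF642-34 libraries were the highest, and the lower CCF642 library lay just above DMSO. The difference from DMSO was 0.54 with CCF642-34 (SE 0.138, adjusted p = 0.000867, limma) and 0.25 with CCF642 (interval -0.03 to 0.53, adjusted p = 0.109), which passed without CCF642 replicate 2 (0.36, adjusted p = 0.0468). Between the compounds the difference was 0.29 (interval 0.01 to 0.56, adjusted p = 0.108).

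The calls of all 3 hosts with CCF642-34, and those of EPB41L4A-AS1 and LRRC75A-AS1 with CCF642, held under each of the alternatives tried. The other listed genes with a snoRNA gene inside them on the same strand were 206 protein-coding hosts. Of these, 71 rose, 59 fell and 76 were not called with CCF642-34, which is 34.5% higher beside 29.7% of all listed genes. With CCF642, 76 rose, 60 fell and 70 were not called, which is 36.9% higher beside 31.8% of all listed genes. The median log2 difference of these 206 hosts was 0.01 with CCF642-34 and 0.02 with CCF642.

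Start regions of the 3 hosts are shown because these members rose together with CCF642-34. They are RefSeq windows on GRCh38.p14, 250 bases before and 50 bases from the annotated start, in which the capitals mark the first 10 transcribed bases and, in LRRC75A-AS1, also GAAAGTTC.
LRRC75A-AS1 (chr17:16438737-16439036, plus strand): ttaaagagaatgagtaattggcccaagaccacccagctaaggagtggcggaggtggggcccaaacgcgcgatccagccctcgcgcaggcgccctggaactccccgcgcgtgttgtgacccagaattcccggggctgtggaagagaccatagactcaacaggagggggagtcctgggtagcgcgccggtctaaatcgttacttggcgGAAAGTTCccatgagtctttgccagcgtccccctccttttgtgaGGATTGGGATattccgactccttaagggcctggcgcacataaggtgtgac
EPB41L4A-AS1 (chr5:112160276-112160575, plus strand): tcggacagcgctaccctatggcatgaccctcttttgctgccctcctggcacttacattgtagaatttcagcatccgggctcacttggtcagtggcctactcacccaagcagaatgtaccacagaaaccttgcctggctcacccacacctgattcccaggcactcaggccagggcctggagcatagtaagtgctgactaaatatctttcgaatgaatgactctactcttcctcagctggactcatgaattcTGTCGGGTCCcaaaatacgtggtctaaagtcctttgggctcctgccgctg
SNHG11 (chr20:38446404-38446703, plus strand): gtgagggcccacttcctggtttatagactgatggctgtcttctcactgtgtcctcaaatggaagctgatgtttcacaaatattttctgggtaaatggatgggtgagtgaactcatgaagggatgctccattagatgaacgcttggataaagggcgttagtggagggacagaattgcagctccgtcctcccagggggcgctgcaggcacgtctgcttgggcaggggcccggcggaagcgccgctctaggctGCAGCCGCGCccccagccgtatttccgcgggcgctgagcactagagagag

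The 3 annotated starts begin with G, T and G. A terminal oligopyrimidine tract, the start letters of ribosomal protein messengers and many snoRNA hosts, opens with a C followed by pyrimidines. In LRRC75A-AS1 the pyrimidines ccccctcctttt lie just before the annotated start. Start positions were not measured here, so the annotated letters do not settle whether a host has such a tract. GAAAGTTC matches GAANNTTC, the core of the heat shock element, and starts 44 bases before the start of LRRC75A-AS1. Windows were at hand for 33 members (41 windows) among 9105 listed genes (13399 windows), and they were searched on both strands. GAANNTTC was in 1 of the members' windows (2.44%) and in 4.87% of all windows. TGACNNNGC, the antioxidant response core, was in 12.2% and 14.7%, TGACGTCA, the cyclic AMP response element, in 7.32% and 2.86%, TGATGNAA, the C/EBP-ATF core, in 2.44% and 2.02%, and the ER stress element in 0 of 41 and in 0.134%. The 3 windows with TGACGTCA belonged to EMC3-AS1, LINC00265 and POT1-AS1. These are matches of letters and not binding sites.

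**Figure D3:**
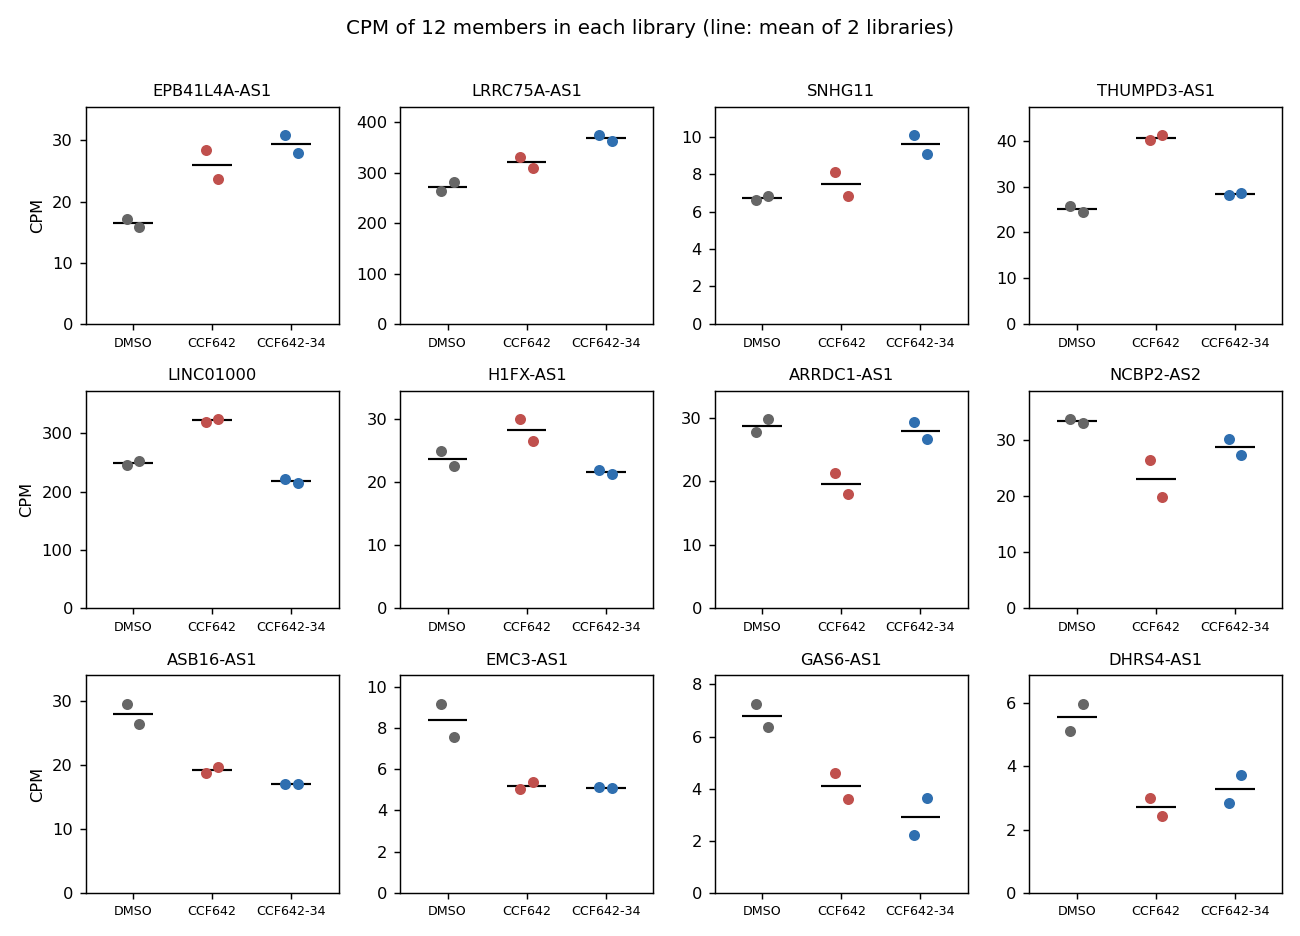
CPM in each library (points, vertical axis from 0) of 12 members in the 3 groups (horizontal axis), with the mean of 2 libraries as a line. EPB41L4A-AS1 rose from 15.8 to 17.2 CPM with DMSO to 23.7 CPM and above with either compound, THUMPD3-AS1, LINC01000 and H1FX-AS1 were highest with CCF642, ARRDC1-AS1 and NCBP2-AS2 were lowest with CCF642, and the bottom row was lower with both.

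THUMPD3-AS1 had the largest increase with CCF642 of any member. It lies opposite THUMPD3, which encodes a methyltransferase acting on transfer RNA, and the GENCODE start of SETD5, a chromatin regulator, is 964 bases from its own on the other strand. THUMPD3-AS1 had 25.7 and 24.4 CPM with DMSO, 40.1 and 41.3 CPM with CCF642, and 28.2 and 28.6 CPM with CCF642-34, and the 3 groups did not overlap. The log2 difference from DMSO was 0.81 with CCF642 (SE 0.0820, adjusted p = 5.1e-12, limma), a 1.75-fold rise, and 0.26 with CCF642-34 (adjusted p = 0.00543). CCF642-34 stood 0.55 below CCF642, which is -0.55 with an interval of -0.71 to -0.38 (adjusted p = 6.98e-07).

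The rise of THUMPD3-AS1 with CCF642, and the difference between the compounds, passed under each alternative tried. The smaller rise with CCF642-34 did not pass without DMSO replicate 2 (0.23, adjusted p = 0.0712) or with library size alone as the scaling (0.18, adjusted p = 0.0611). The sense gene THUMPD3 rose by 0.42 with CCF642 and 0.34 with CCF642-34, with -0.08 between the compounds (interval -0.18 to 0.03). SETD5, looked up after the values of THUMPD3-AS1 were seen, rose by 0.71 and 0.30 and was 0.40 lower with CCF642-34 than with CCF642 (log2 difference -0.40, adjusted p = 1.09e-09). Exons of THUMPD3-AS1 overlap those of THUMPD3 by 660 of its 6275 exonic bases, and those of SETD5 by 0.

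LINC01000, an intergenic RNA of no settled function, was the member called in opposite directions. It had 246 and 252 CPM with DMSO, 320 and 324 CPM with CCF642, and 222 and 214 CPM with CCF642-34, on 5385 to 7330 reads in a library. CCF642 libraries were the highest, CCF642-34 libraries the lowest, and no groups overlapped. The log2 difference was 0.50 with CCF642 (SE 0.0428, adjusted p = 1.96e-14, limma) and -0.10 with CCF642-34 (adjusted p = 0.0387). The compounds differed by -0.61 (interval -0.69 to -0.52, adjusted p = 3.72e-16), which together with the rise with CCF642 passed under each alternative.

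The decrease of LINC01000 with CCF642-34 was lost without DMSO replicate 1 (-0.12, adjusted p = 0.0973), DMSO replicate 2 (-0.09, adjusted p = 0.24) or CCF642-34 replicate 2 (-0.07, adjusted p = 0.271). In RefSeq the pseudogene CICP14, 1 of a family with many copies, lies within LINC01000, so reads could have been shared with near-identical sequence, and its level is uncertain for that reason. The same holds for LINC00999, next to the copy CICP9, and for LINC01138, next to PDE4DIPP6, a partial copy of PDE4DIP.

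H1FX-AS1, ARRDC1-AS1 and NCBP2-AS2 were also called with CCF642 and in the opposite direction between CCF642-34 and CCF642, while CCF642-34 was not called against DMSO. H1FX-AS1, opposite the gene of the linker histone H1X, had 24.9 and 22.6 CPM with DMSO, 30 and 26.6 CPM with CCF642, and 21.9 and 21.3 CPM with CCF642-34. It was 0.37 higher with CCF642 than with DMSO (SE 0.0921, adjusted p = 0.000508, limma) and 0.41 lower with CCF642-34 than with CCF642, a difference of -0.41 (interval -0.60 to -0.23, adjusted p = 0.000394). Against DMSO, CCF642-34 gave -0.04 (interval -0.23 to 0.14).

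ARRDC1-AS1, opposite the gene of an arrestin-domain protein, showed the reverse. It had 27.8 and 29.8 CPM with DMSO, 21.3 and 18.0 CPM with CCF642, and 29.3 and 26.7 CPM with CCF642-34. CCF642 libraries lay below the rest, while the DMSO and CCF642-34 libraries overlapped. The difference was -0.41 with CCF642 (SE 0.0931, adjusted p = 0.00019, limma), 0.05 with CCF642-34 (interval -0.14 to 0.23) and 0.45 between CCF642-34 and CCF642 (interval 0.27 to 0.64, adjusted p = 0.000144). Leaving out any single library kept the calls of H1FX-AS1 and ARRDC1-AS1, but the gene-wise linear model, which shares no spread between genes, ended them, at adjusted p = 0.0531 with CCF642 and 0.0991 between the compounds for H1FX-AS1, and 0.0738 and 0.122 for ARRDC1-AS1.

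NCBP2-AS2, whose start lies back to back with that of NCBP2 at a distance of 26 bases, had 33.7 and 33.0 CPM with DMSO, 26.4 and 19.8 CPM with CCF642, and 30.2 and 27.3 CPM with CCF642-34. It was -0.39 with CCF642 against DMSO (SE 0.0953, adjusted p = 0.000371, limma), -0.12 with CCF642-34 (interval -0.31 to 0.07) and 0.27 between the compounds (adjusted p = 0.0225). These calls rested on CCF642 replicate 2, the lowest library, without which they were -0.20 (adjusted p = 0.0722) and 0.08 (adjusted p = 0.594). The last was also lost without CCF642-34 replicate 1 (0.20, adjusted p = 0.253). NCBP2, the small subunit of the nuclear cap-binding complex, was -0.37 with CCF642 and -0.33 with CCF642-34, and both passed.

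The 4 members that fell with both compounds carried antisense symbols. ASB16-AS1 was the surest of them, with 29.6 and 26.4 CPM with DMSO, 18.8 and 19.7 CPM with CCF642, and 17 and 17.1 CPM with CCF642-34. It fell by 0.39 on the log2 scale with CCF642 (SE 0.0965, adjusted p = 0.000479, limma) and by 0.60 with CCF642-34 (adjusted p = 7.26e-07), and these calls held under each alternative. The difference between the compounds was -0.21 (interval -0.40 to -0.01, adjusted p = 0.0943).

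EMC3-AS1, opposite a subunit gene of the ER membrane protein complex, is a long noncoding RNA in RefSeq and a transcribed unprocessed pseudogene in GENCODE. It had 9.18 and 7.57 CPM with DMSO and between 5.06 and 5.36 CPM in the 4 treated libraries. It fell by 0.47 with CCF642 (adjusted p = 0.00544, limma) and by 0.53 with CCF642-34 (adjusted p = 0.00207), with -0.06 between the compounds (interval -0.36 to 0.24). DMSO replicate 1, the highest library, decided the calls, which without it were -0.35 (adjusted p = 0.124) and -0.41 (adjusted p = 0.0741).

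GAS6-AS1, opposite the gene of a ligand of the AXL family of receptors, had 7.26 and 6.35 CPM with DMSO, 4.62 and 3.59 CPM with CCF642, and 2.21 and 3.63 CPM with CCF642-34. It fell by 0.51 with CCF642 (adjusted p = 0.0109, limma) and by 0.94 with CCF642-34 (adjusted p = 1.04e-05), with -0.43 between the compounds (interval -0.79 to -0.08, adjusted p = 0.0519). The CCF642 call was lost without DMSO replicate 1 (-0.42, adjusted p = 0.099) or CCF642 replicate 2 (-0.36, adjusted p = 0.106). The compounds were told apart without CCF642 replicate 2 (-0.58, adjusted p = 0.0177) or without CCF642-34 replicate 2 (-0.69, adjusted p = 0.0164), and with DESeq2's size factors (-0.44, adjusted p = 0.0476). Under the gene-wise linear model the calls against DMSO were lost (adjusted p = 0.204 with CCF642 and 0.0756 with CCF642-34).

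DHRS4-AS1, opposite the gene of an NADPH-dependent reductase, had 5.13 and 5.98 CPM with DMSO, 3.01 and 2.43 CPM with CCF642, and 2.85 and 3.74 CPM with CCF642-34. It fell by 0.71 with CCF642 (adjusted p = 0.000487, limma) and by 0.54 with CCF642-34 (adjusted p = 0.00764), with 0.17 between the compounds (interval -0.18 to 0.52). Without DMSO replicate 2 the CCF642-34 value was -0.45 (adjusted p = 0.0968), and without CCF642-34 replicate 1 it was -0.39 (adjusted p = 0.13).

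ANP32A-IT1, an RNA named for the intron of ANP32A in which it lies, was the member that passed the 2-fold criterion. It had 2.31 and 4.02 CPM with DMSO, 2.19 and 2.35 CPM with CCF642, and 1.05 and 0.648 CPM with CCF642-34, on 18 to 86 reads. The CCF642-34 libraries lay below the other 4, and the DMSO libraries were far apart. The difference with CCF642-34 was -1.08 against DMSO (SE 0.214, adjusted p = 2.54e-05, limma) and -0.86 against CCF642 (interval -1.29 to -0.43, adjusted p = 0.00138), the latter -0.70 (adjusted p = 0.0532) without CCF642-34 replicate 2. Under the gene-wise linear model both calls of ANP32A-IT1 were lost (adjusted p = 0.0693 and 0.168). ANP32A, which encodes an acidic nuclear phosphoprotein, had 206 and 207 CPM with DMSO, 124 and 114 CPM with CCF642, and 143 and 135 CPM with CCF642-34. It was thus lower with CCF642 than with CCF642-34 (0.18 between them, adjusted p = 0.00405), the opposite order to ANP32A-IT1.

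The members that rose with CCF642-34 and were not called with CCF642 were SNHG11, LINC01138, LINC00324 and URB1-AS1. LINC01138 had 3.65 and 4.30 CPM with DMSO, 4.57 and 4.07 CPM with CCF642, and 6.75 and 6.30 CPM with CCF642-34. The rise with CCF642-34 was 0.67 (SE 0.160, adjusted p = 0.000354, limma) and held under each alternative that kept LINC01138, which the filter at 5 CPM removes, and with CCF642 the value was 0.21 (interval -0.12 to 0.53). The difference between the compounds, 0.46 (adjusted p = 0.021), was lost without CCF642 replicate 2 (0.40, adjusted p = 0.0964), CCF642-34 replicate 1 (0.42, adjusted p = 0.143) or CCF642-34 replicate 2 (0.51, adjusted p = 0.0675).

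LINC00324 had 2.87 and 3.74 CPM with DMSO, 3.94 in each CCF642 library, and 5.2 and 4.71 CPM with CCF642-34. It was 0.54 higher with CCF642-34 (adjusted p = 0.00544, limma), which was lost without DMSO replicate 1 (0.40, adjusted p = 0.112) or CCF642-34 replicate 1 (0.48, adjusted p = 0.0621). With CCF642 it was 0.31 (interval -0.03 to 0.65), and the compounds were not told apart (0.23, interval -0.11 to 0.58).

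Besides H1FX-AS1, AFAP1-AS1 and LINC00999 rose with CCF642 and were not called with CCF642-34. AFAP1-AS1, opposite the gene of an actin-binding protein, had 19 and 20 CPM with DMSO, 21.1 and 23.4 CPM with CCF642, and 19.4 and 20.7 CPM with CCF642-34. It rose by 0.31 (adjusted p = 0.00544, limma), which was lost without DMSO replicate 1 (0.27, adjusted p = 0.0585) or CCF642 replicate 2 (0.23, adjusted p = 0.0713), and with library size alone as the scaling (0.18, adjusted p = 0.0997). LINC00999 rose by 0.59 (adjusted p = 0.0046, limma), from 3.09 and 2.99 CPM to 4.42 and 4.91 CPM, while its CCF642-34 libraries were at 2.64 and 4.71 CPM. Under the gene-wise linear model the rises with CCF642 were lost for LINC00999 (adjusted p = 0.177) and AFAP1-AS1 (adjusted p = 0.0581). The compounds did not differ beyond the spread for AFAP1-AS1 (-0.18, interval -0.38 to 0.01) or LINC00999 (-0.35, interval -0.72 to 0.02), and the latter passed without CCF642-34 replicate 2 (-0.67, adjusted p = 0.0229).

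The other members that fell with CCF642 only were near the bottom of the measured range. NPSR1-AS1 had 41 and 36 reads with DMSO, 7 and 11 with CCF642 and 24 and 27 with CCF642-34, that is, 1.78 and 1.68, 0.340 and 0.487, and 0.843 and 0.971 CPM. It fell by 0.89 with CCF642 (SE 0.232, adjusted p = 0.000909, limma), and the compounds were not told apart (0.42, interval -0.04 to 0.89). The call held under each alternative other than the filter at 5 CPM, which removes this member. However, every listed gene reaches a minimum CPM in some library, and only the DMSO libraries of NPSR1-AS1 did so. Its listing thus favours a fall, and no alternative tried undoes that selection. No treated library of CSNK1G2-AS1, FOXD2-AS1 or the sense gene FOXD2 reached that minimum either, so the same limit applies to their falls.

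CSNK1G2-AS1 fell by 0.53 (adjusted p = 0.0475, limma), from 1.13 and 1.82 CPM to 0.681 and 0.575 CPM, and was lost when any single library other than DMSO replicate 1 was left out, with adjusted p up to 0.369 without DMSO replicate 2.

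Besides ANP32A-IT1, 4 members fell with CCF642-34 only, and their mean CPM ran from 1.4 to 3.68. FOXD2-AS1, next to the gene of a forkhead factor, went from 1.74 and 2.43 CPM with DMSO to 0.668 and 0.755 CPM (-0.79, adjusted p = 0.00212, limma), and was -0.62 (adjusted p = 0.0609) without DMSO replicate 2. ADORA2A-AS1 went from 4.26 and 4.77 CPM to 1.93 and 3.60 CPM (-0.51, adjusted p = 0.0175), and without CCF642-34 replicate 1 it was -0.19 (adjusted p = 0.485). LINC00173 (-0.52, adjusted p = 0.0495) and CIRBP-AS1 (-0.43, adjusted p = 0.0387) were close to the threshold. The former was lost without DMSO replicate 1, CCF642-34 replicate 1 or CCF642-34 replicate 2, with adjusted p up to 0.348, the latter without any DMSO or CCF642-34 library, with adjusted p up to 0.199, and ADORA2A-AS1 also without DMSO replicate 2 (-0.45, adjusted p = 0.104).

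LINC00265 and DPP9-AS1 were called only between the compounds. LINC00265 had 12 and 10.1 CPM with DMSO, 11.3 and 12.7 CPM with CCF642, and 8.82 and 9.61 CPM with CCF642-34 (-0.39 between the compounds, interval -0.64 to -0.13, adjusted p = 0.0143, limma), lost without CCF642 replicate 2 (-0.30, adjusted p = 0.11) or CCF642-34 replicate 1 (-0.33, adjusted p = 0.127). DPP9-AS1 had 3.40 and 2.74 CPM with CCF642 and 1.90 and 1.47 CPM with CCF642-34 (-0.64, interval -1.04 to -0.24, adjusted p = 0.0109). It was lost without CCF642 replicate 1 (-0.52, adjusted p = 0.0856) or CCF642-34 replicate 2 (-0.52, adjusted p = 0.128). A direct call beside a CCF642 call of the opposite sign was seen in 5 members (10%, against 22.2% of all listed genes), and these comparisons share the CCF642 libraries.

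DESeq2's Wald test on the recovered reads did not make several of these calls. With CCF642 it left out, among others, GAS6-AS1 and CSNK1G2-AS1 (adjusted p = 0.0573 and 0.0864). With CCF642-34 it left out ADORA2A-AS1, CIRBP-AS1, LINC00173 and URB1-AS1 (adjusted p = 0.0911, 0.106, 0.0986 and 0.0914). Between the compounds it left out LINC01138, NCBP2-AS2 and URB1-AS1 (adjusted p = 0.0818, 0.106 and 0.12). The gene-wise linear model also ended calls not yet given with it. With CCF642 these included CSNK1G2-AS1, DHRS4-AS1 and NCBP2-AS2 (adjusted p = 0.103, 0.0533 and 0.164). With CCF642-34 they included DHRS4-AS1, LINC00324, LINC01000 and URB1-AS1 (adjusted p = 0.0989, 0.0599, 0.0934 and 0.0858). Between the compounds they included DPP9-AS1, LINC00265, LINC01138, LRRC75A-AS1, NCBP2-AS2 and URB1-AS1 (adjusted p = 0.155, 0.163, 0.0998, 0.184, 0.375 and 0.137).

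By kind of symbol, the 35 antisense or intronic members gave 5 higher and 9 lower with CCF642, and 4 higher and 8 lower with CCF642-34. Of all listed genes, 31.8% were higher and 31.3% lower with CCF642, and 29.7% and 27.9% with CCF642-34. The 14 LINC members gave 2 higher and 0 lower with CCF642, and 2 higher and 2 lower with CCF642-34. Median log2 differences were -0.04 and 0.17 for these kinds with CCF642, and -0.12 and -0.07 with CCF642-34.

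By limma, 23 members passed in none of the 3 comparisons, 46% against 24.2% of all listed genes. Of these, 9 had a mean of at least 5 CPM, namely CELF2-AS1, FBXL19-AS1, GDNF-AS1, LINC00174, LINC00467, LINC00893, LINC00909, STARD7-AS1 and TP73-AS1. LINC00909 was the most abundant, at 15.6 to 19.9 CPM, and its differences from DMSO had intervals of -0.19 to 0.24 with CCF642 and -0.20 to 0.23 with CCF642-34. LINC00467 ranged from 12.6 to 13.8 CPM, with 0.16 (interval -0.07 to 0.40) and 0.06 (interval -0.17 to 0.29). The other 14 lay under 5 CPM, and these are CACTIN-AS1, EML2-AS1, FAM222A-AS1, IDI2-AS1, LINC00115, LINC00526, LINC01011, LINC01126, POT1-AS1, RBM12B-AS1, SSBP3-AS1, ST20-AS1, ZNF295-AS1 and ZNF436-AS1. Log2 differences of the 23 ran from -0.56 to 0.49 and their SE from 0.107 to 0.257.

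Some of the 23 passed under another setting. IDI2-AS1 was lower with CCF642-34 than with CCF642 by edgeR (-1.12, adjusted p = 0.0378), by limma-voom (-1.09, adjusted p = 0.0321) and with a pseudocount of 0.1 (-1.01, adjusted p = 0.0479). Its limma difference was -0.79 without CCF642 replicate 2. Only CCF642 replicate 1 of IDI2-AS1, at 1.85 CPM, reached the minimum CPM of the listing, which favours this direction. CELF2-AS1 was lower with CCF642-34 than with DMSO with library size alone as the scaling (-0.32, adjusted p = 0.0284). Without CCF642 replicate 1, the limma difference of LINC01126 was -0.76 with CCF642 and 0.70 between the compounds. That of LINC00174 was -0.46 between the compounds. This fit keeps only CCF642 replicate 2 of its group, in which LINC01126 had 6 reads (0.266 CPM). The library left out, at 1.65 CPM, was the only one of LINC01126 to reach the minimum CPM of the listing.

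Antisense members were then set beside their sense genes. Of the 35 antisense or intronic members, 31 had their sense gene among the listed genes. GENCODE exons of both genes overlapped in 24 of the 30 pairs that could be placed, and 3 pairs (FOXD2-AS1, NCBP2-AS2 and URB1-AS1) had their starts back to back without overlap. Whether the counting kept the strand is not given in the sources used here, so reads from overlapping exons of a member and its sense gene cannot be told apart. Per kb of exon the member was the higher of the pair in 8 of 30, and the median ratio of sense gene to member was 3.81.

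With CCF642, both genes were called in 7 of the 31 pairs, and all 7 went the same way. With CCF642-34, both were called in 6 pairs, of which 5 went the same way. Only the member passed in 6 and 5 pairs, only the sense gene in 8 and 13, and neither in 10 and 7. Among the 7 pairs of CCF642 were those of CSNK1G2-AS1, EMC3-AS1, GAS6-AS1, H1FX-AS1, NCBP2-AS2 and THUMPD3-AS1, and the 5 of CCF642-34 were those of ANP32A-IT1, ASB16-AS1, FOXD2-AS1, GAS6-AS1 and THUMPD3-AS1. Since most genes moved in these data, the share of sense genes called, 15 and 19 of 31, is to be read beside 63.1% and 57.6% of all listed genes.

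H1FX-AS1 and H1FX, which encodes the linker histone, were both highest with CCF642. H1FX had 1131 and 1130 CPM with DMSO, 2014 and 1837 CPM with CCF642, and 1605 and 1475 CPM with CCF642-34 (0.90 and 0.53 against DMSO, limma). With CCF642-34, H1FX was thus called higher while H1FX-AS1 was not called. GAS6 had 521 and 526 CPM with DMSO, 360 and 350 CPM with CCF642, and 415 and 396 CPM with CCF642-34 (-0.43 and -0.28), so that CCF642 libraries were its lowest, whereas GAS6-AS1 had its lowest library with CCF642-34. EMC3 was called with CCF642 (-0.32) and not with CCF642-34 (-0.04), while EMC3-AS1 fell with both.

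ASB16 was -0.17 with CCF642, not called, and -0.26 with CCF642-34, called. FOXD2, at 0.632 to 1.59 CPM, was called with CCF642-34 (-0.56) and not with CCF642 (-0.29), and CSNK1G2, a casein kinase, was called with CCF642 (-0.13) and not with CCF642-34 (-0.10). AFAP1, ARRDC1, CIRBP, DHRS4 and DPP9 were called with neither compound.

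URB1-AS1 was the pair that split. URB1-AS1 had 2.78 and 2.38 CPM with DMSO, 2.43 and 2.17 CPM with CCF642, and 3.30 and 4.21 CPM with CCF642-34. It was 0.47 higher with CCF642-34 than with DMSO (adjusted p = 0.0287, limma) and 0.49 higher than with CCF642 (adjusted p = 0.0371). URB1, a factor of ribosome assembly whose start lies 104 bases away on the other strand, had 134 and 136 CPM with DMSO, 81.0 and 75.5 CPM with CCF642, and 77.3 and 83.1 CPM with CCF642-34. It fell by 0.65 and 0.66 with the compounds (adjusted p = 2.87e-14 and 2.82e-14).

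The rise of URB1-AS1 was lost with library size alone as the scaling (0.40, adjusted p = 0.0596), without DMSO replicate 2 (0.39, adjusted p = 0.167) or CCF642-34 replicate 2 (0.34, adjusted p = 0.24), and its difference from CCF642 without CCF642 replicate 2 (0.44, adjusted p = 0.125) or CCF642-34 replicate 2 (0.36, adjusted p = 0.282). The GENCODE exons of URB1-AS1 and URB1 do not overlap.

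Some strongly changed sense genes had antisense members that limma did not call. TP73, a relative of the tumour suppressor p53, went from 26.3 and 27.2 CPM with DMSO to 12.1 and 11.8 CPM with CCF642 and 11 and 10.9 CPM with CCF642-34 (-0.98 and -1.13, adjusted p = 5.75e-11 and 1.04e-12, limma). TP73-AS1 had 5.35 to 6.71 CPM in all 6 libraries, with differences of -0.03 (interval -0.33 to 0.27) and 0.06 (interval -0.24 to 0.36). ZNF295-AS1 lies opposite ZBTB21, the current name of ZNF295, which encodes a zinc finger repressor and rose by 1.44 with CCF642 and, with CCF642-34, from 105 and 104 CPM to 188 and 208 CPM, while ZNF295-AS1 itself had 0.609 to 1.85 CPM and was not called. With CCF642, the limma difference of ZNF295-AS1 was 0.71 without DMSO replicate 2 and 0.61 without CCF642 replicate 2. Only CCF642 replicate 1 of ZNF295-AS1, at 1.85 CPM, reached the minimum CPM of the listing, which favours a rise with CCF642.

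Other members changed beside a sense gene that was not called. EPB41L4A-AS1 shares 1659 bases, 49.6% of its exonic length, with exons of EPB41L4A, which had 9.05 and 8.22 CPM with DMSO and differed by -0.02 with CCF642 and 0.19 with CCF642-34 (adjusted p = 0.918 and 0.235, limma). LRRC75A-AS1 shares 452 bases with LRRC75A, which stayed at 1.69 to 2.61 CPM beside 264 to 375 CPM for LRRC75A-AS1 and was uncalled (0.02 and -0.24). EML2-AS1 shows the converse limit, since 95% of its exonic length lies in exons of EML2. EML2-AS1 had 0.561 to 1.55 CPM and was not called by limma. With CCF642-34 it was higher by edgeR (1.11, adjusted p = 0.0418) and by limma-voom (1.02, adjusted p = 0.0403). Its limma difference was 0.72 without CCF642-34 replicate 1. Only CCF642-34 replicate 2, at 1.55 CPM, reached the minimum CPM of the listing, which favours such a rise. The fit without CCF642-34 replicate 1 keeps only that library of the group. EML2 rose by 0.67 and 0.51.

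**Figure D4:**
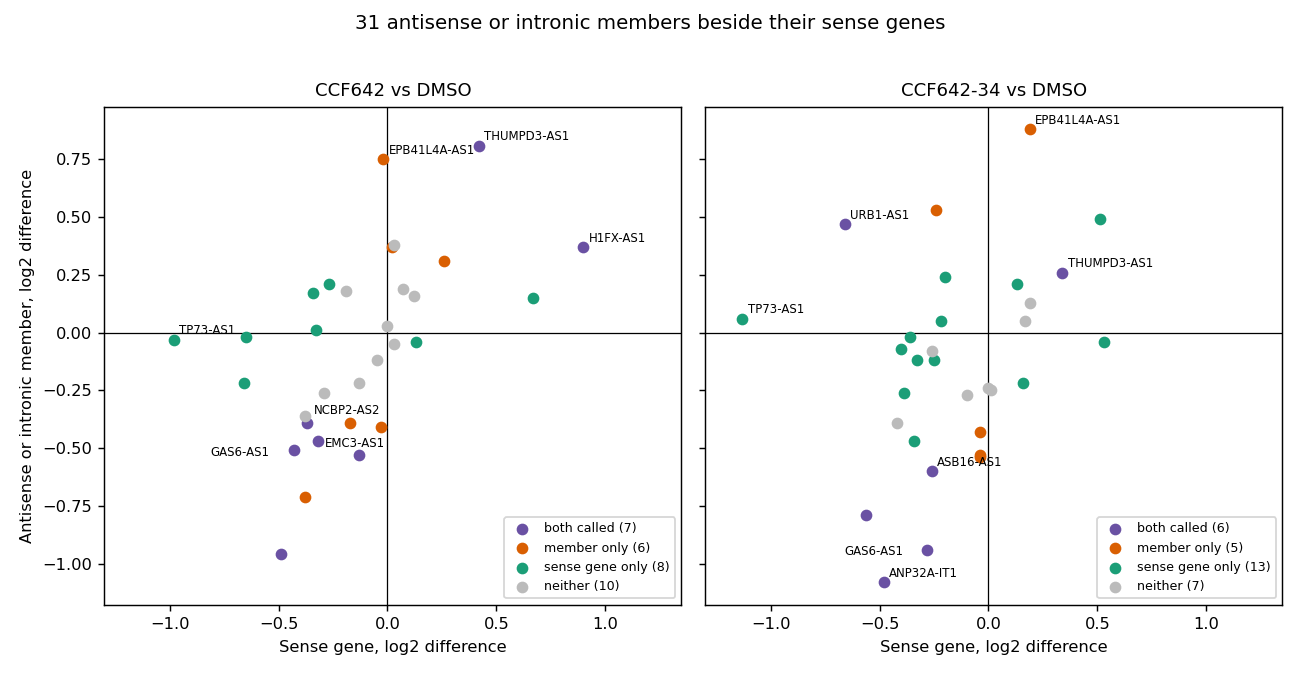
Log2 difference from DMSO of 31 antisense or intronic members (vertical axis) against that of their sense genes (horizontal axis), with CCF642 (left) and CCF642-34 (right). Colours give which gene of a pair had an adjusted p under 0.05; with CCF642 the 7 pairs with both called (purple) lie in the lower left and upper right, and with CCF642-34 the pair of URB1-AS1 lies in the upper left.

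Outside the symbol rule, 7 of 74 further long noncoding RNA symbols looked up were among the listed genes. MIR22HG, the host transcript of miR-22, had 6.35 and 6.77 CPM with DMSO, 53.9 and 48.2 CPM with CCF642, and 42.3 and 44.1 CPM with CCF642-34 (2.90 and 2.63, adjusted p = 5.11e-31 and 4.97e-29, limma). LINC-PINT, a transcript known to be induced by p53, rose by 1.07 and 0.75, and was 0.32 lower with CCF642-34 than with CCF642 (-0.32, adjusted p = 5.28e-06). DLEU1, from a region often deleted in lymphocytic leukaemia, fell by 1.02 and 0.87, and MIR600HG fell by 0.53 and 0.80. CRNDE rose with CCF642-34 (0.19, adjusted p = 0.0318) and not with CCF642 (0.05), and MIR646HG and TP53TG1 were not called with either. The increase of MIR22HG was larger than that of any of the 50 members.

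Genes that act on long noncoding RNAs were counted as lists. The counts of each list, and of the markers further below, are to be read beside the share of all listed genes. That share was 31.8% higher and 31.3% lower with CCF642, and 29.7% and 27.9% with CCF642-34. Of 20 genes grouped under nonsense-mediated decay, 11 rose and 1 fell with CCF642, and 7 rose and 4 fell with CCF642-34. Their medians were 0.18 and 0.05. In this list PNRC1 and CASC3, the latter a core protein of the exon junction complex, had the largest increases with CCF642 (0.85 and 0.59). With CCF642-34 these were MAGOHB and CASC3 (0.39 and 0.47). PNRC2, in the list beside PNRC1, was not called with CCF642 and fell with CCF642-34 (-0.15). The place of PNRC1 in this pathway was not tested. RBM8A fell with both (-0.22 and -0.18), and UPF1, the helicase of the pathway, fell with CCF642-34 (-0.19). SMG1, the kinase that acts on UPF1, rose by 0.56 and 0.10.

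Of 17 snoRNP core proteins and assembly factors, which bind the RNAs cut from the hosts, 4 rose and 7 fell with CCF642, and 4 rose and 6 fell with CCF642-34, with medians of -0.16 and -0.08. NOP56, of the C/D particles, fell by 0.57 and 0.64, and DKC1, the pseudouridine synthase of the H/ACA particles, by 0.63 and 0.51. NOP58 and RPAP3 were higher with CCF642 (0.29 and 0.23), and ZNHIT3 and RPAP3 with CCF642-34 (0.29 and 0.25).

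Of 18 genes of the nuclear RNA exosome and its adaptors, 8 rose and 5 fell with CCF642, and 7 rose and 3 fell with CCF642-34, with medians of 0.01 and 0.04. ZCCHC8, of the nuclear exosome targeting complex, rose by 1.24 and 0.90, and EXOSC1 by 0.83 and 0.91, whereas EXOSC2 fell by 0.81 and 0.65 and EXOSC6 by 0.40 and 0.30. Of 15 paraspeckle proteins, which assemble on NEAT1, 2 rose and 6 fell with CCF642, and 2 rose and 9 fell with CCF642-34, with medians of -0.08 and -0.17. TARDBP fell by 0.44 and 0.43 and CPSF6 by 0.40 and 0.54, while CPSF7 rose by 0.35 and 0.20. EWSR1 also rose with CCF642 (0.25) and RBM3 with CCF642-34 (0.14).

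The labelled cell type was checked by markers. All 10 plasma cell markers found among the listed genes were measured in every library, and their summed level was 9904 to 10003 CPM with DMSO, 7020 to 7054 CPM with CCF642 and 7866 to 7911 CPM with CCF642-34. With CCF642, 4 of them rose and 6 fell (IRF4 by 0.90 and SDC1 by -1.67 on the log2 scale), and with CCF642-34, 2 rose and 6 fell (IRF4 by 1.11 and SDC1 by -1.12), and the highest after IRF4 was SLAMF7 (0.37 and 0.31) and the lowest after SDC1 was JCHAIN with CCF642 (-1.10) and TNFRSF17 with CCF642-34 (-0.81). Of 18 markers of other cell types, 4 were listed (CD3E, HBB, EPCAM and COL1A1), and they summed to 7.48 to 7.52, 16.3 to 17.2 and 11.9 to 12.1 CPM. COL1A1 rose by 2.33 and 0.90 and HBB by 0.64 with CCF642-34. The part of these shifts in the members' results was not tested.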

How the data were processed

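MM1.S cells were treated for 6 h with vehicle (DMSO) or with 1 of the 2 compounds at 3 µM, and the authors sequenced their polyadenylated RNA in 2 libraries a group. The submitters' processing notes name STAR, edgeR 3.24.3, limma 3.38.3 and hg19, with no roles. The counting tool, annotation and strand setting are not given in the sources used here. The deposited values were CPM, a unit read from the values, which neither the labels nor the paper states. In each library 100% of the values were whole multiples of 1 read within 0.01 read, which gave the recovered reads and totals of 20567313 to 28459677 reads. A deposited table of all 6 libraries held the same values and was not used. The files list 11048 genes, each reaching at least 1.50 CPM in some library, so lower genes were not analysed here.

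Values were scaled with TMM factors, transformed as log2(CPM + 1) with a pseudocount of 1, and fitted with limma 3.58.1 (trend) over all 6 libraries in R 4.3.3, 2-sided, with Benjamini-Hochberg adjustment over all 11048 genes. Groups followed the labels. No low-value filter was applied. Both treated groups share the DMSO libraries. The code was tested on simulated data. Alternatives were edgeR 4.0.16, DESeq2 1.42.0 and limma-voom on the recovered reads, other scalings and pseudocounts, a filter at 5 CPM, a replicate block, a gene-wise linear model, fits of 2 groups, and leaving out each library.

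The members, lists and tests were chosen with earlier results of these data known. Genes named were EPB41L4A-AS1 and any SNHG gene, the 8 largest increases and decreases per comparison among called members whose libraries did not overlap, the 8 members highest in mean CPM, their sense genes, pairs called in opposite directions, members whose symbol is an older name of a protein-coding gene, and the 2 largest changes each way per list. Others (CIRBP-AS1, SETD5, SMG1, LINC00909, LINC00467, CRNDE and the remaining uncalled or list genes) were chosen after their values were seen. Exons and snoRNA genes came from GENCODE 29 and start windows from RefSeq (GRCh38.p14), matched by symbol for 47 and 33 members. A result for 1 member is not reported here.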

Additional observations from a re-analysis of the deposited data

How the results depend on the processing

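Of 2463 values of single members under an alternative, 2339 kept their side of the threshold, 90 lost a call, 34 gained one and 0 called values changed sign. Calls that held under every alternative that gave a value numbered 6 of 16 with CCF642, 5 of 17 with CCF642-34 and 2 of 11 between the compounds. Leaving out 1 library gave 6 to 8 higher and 5 to 9 lower members with CCF642 (5 without CCF642 replicate 2), 5 to 8 higher and 5 to 11 lower with CCF642-34 (6 without DMSO replicate 1, 5 without DMSO replicate 2, 6 without CCF642-34 replicate 1), and 2 to 7 higher and 5 to 8 lower between the compounds (2 higher without CCF642 replicate 2 or CCF642-34 replicate 1, 3 without CCF642-34 replicate 2), where an arm of 1 library is assumed to vary like the others. By the 2-fold criterion these fits gave 0 to 1, 1 to 1 and 0 to 1 lower members. The gene-wise linear model gave 4 higher and 3 lower with CCF642, 4 lower with CCF642-34, and 0 higher and 2 lower between the compounds, and the filter at 5 CPM, which tests fewer genes, gave 4 lower, 4 higher and 3 lower, and 3 higher. DESeq2 gave 2 higher between the compounds. Over all genes edgeR called 6932, 6440 and 3724, against 6974, 6362 and 3685 by limma. By the 2-fold criterion, lower members numbered 1 and 2 with library size alone (CCF642, CCF642-34), 2, 3 and 2 with a pseudocount of 0.1, 0 with CCF642-34 at a pseudocount of 4 or after the filter, 3, 3 and 3 with edgeR and with limma-voom, and 1, 3 and 3 with DESeq2, and higher members 1 and 1 with edgeR and 1 and 2 with limma-voom (CCF642-34, and between the compounds) and 1 between the compounds with a pseudocount of 0.1. Library size alone moved the median of all genes to -0.131, -0.078 and 0.051, and the share of calls that were higher from 50.4% to 34.8%, 51.6% to 38.6% and 47.8% to 61.8%. Among the members that share was 40%, 31.2% and 45.5%, against 43.8%, 41.2% and 45.5%. Deviations of same-numbered libraries correlated at -0.00889, -0.0563 and 0.0467, so the numbers do not pair them. With the replicate block 7 members were higher and 9 lower with CCF642, 7 and 10 with CCF642-34, and 5 and 8 between the compounds, where GAS6-AS1 (-0.43, adjusted p = 0.0366) and IDI2-AS1 (-0.56, adjusted p = 0.0472) were gained. The cause of these shifts was not tested.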
